A study of Mus musculus with 14 samples.

Results

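Glycolysis splits glucose into pyruvate in the cytosol and yields ATP without oxygen. Its first steps spend ATP to phosphorylate and cleave the sugar, its later steps return ATP, and lactate dehydrogenase turns pyruvate into lactate and so regenerates the NAD+ that the pathway consumes. In bone marrow, quiescent hematopoietic stem cells are known for relying on glycolysis, and granulocytes and activated macrophages are known for a high glycolytic rate. Several of its genes are textbook targets of the hypoxia-inducible factors, which bind the core ACGTG, and of Myc, which binds the E-box CACGTG.

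The expression of 10 glycolytic enzyme genes was examined, out of 55487 genes in the count tables. They are hexokinase 1 and 2 (Hk1, Hk2), glucose-6-phosphate isomerase (Gpi1), liver-type phosphofructokinase (Pfkl), aldolase A (Aldoa), triosephosphate isomerase (Tpi1), phosphoglycerate kinase 1 (Pgk1), enolase 1 (Eno1), muscle-type pyruvate kinase (Pkm) and lactate dehydrogenase A (Ldha). All 10 were found by symbol and all 10 passed the filter on low counts in every comparison. The symbol Aldoa belonged to a pair of identifiers, and the established gene (ENSMUSG00000030695) was used.

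RNA sequencing was analysed for LSK cells (Lin-Sca1+c-kit+, the fraction that holds the stem cells) and LK cells (Lin-c-kit+ myeloid progenitors, also labelled MP) sorted from the bone marrow of mice. All of these mice were lethally irradiated C57BL/6 hosts that carried transplanted marrow from pI-pC induced Mx1Cre; Jak2VF/+ donors, so both treatment groups share the heterozygous Jak2 knock-in allele and the transplant. From 4 weeks after transplantation they received PBS (3 libraries per population) or IL-1β (0.5 μg per dose, 3 doses per week for 16 weeks, 2 libraries per population). Mesenchymal stromal cell (MSC) cultures were grown for 21 days from wild-type C57BL/6 marrow and kept in PBS (2 libraries) or IL-1β at 5 ng/ml for 72 h (2 libraries). Mx1Cre is induced by interferon and is not restricted to blood cells, and the sorted cells can include host cells that survived irradiation. Mice entered the experiments of the study at 6 to 8 weeks of age. Nothing in the labels says which libraries share an animal, so p-values measure the spread between these libraries only.

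Library totals ran from 4393233 to 30871055 counted read pairs, and the lowest count of any of the 10 genes in any library was 300, for Hk2. Levels are given as CPM after TMM scaling over all 14 libraries (counts relative to the scaled library total), and as the same value per kilobase of gene model where genes are compared with each other. Among the LSK libraries with PBS, replicate 2 stood apart. It differed by more than 2-fold from the other PBS libraries in 4083 and 4088 of 15393 genes, against 1513 between those other libraries. In LK cells with PBS, replicate 3 had the highest Pkm and the highest neutrophil markers of its group. The MSC cultures carried macrophage transcripts. All 18 macrophage markers were detected in them, with a summed level of 25714 to 54421 CPM, beside 2899 to 6962 CPM for 15 mesenchymal markers.

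Each gene lies in a single locus of GRCm38. Hk1 lies at chr10:62268855-62379908 and Pfkl at chr10:77986947-78010083, both on the minus strand. Hk2 (chr6:82725025-82774454), Tpi1 (chr6:124810586-124814296), Gpi1 (chr7:34201330-34230336) and Aldoa (chr7:126795234-126800751) are also on the minus strand. Ldha (chr7:46841475-46855627), Eno1 (chr4:150236721-150248879), Pkm (chr9:59656368-59679375) and Pgk1 (chrX:106187100-106203699) are on the plus strand.

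The 250 bases before the start site were searched for ACGTG on both strands, because the transcript of Hif1a, the oxygen-regulated subunit that binds this core, was higher with IL-1β in LK cells and MSC cultures as described further on. RefSeq windows (GRCm38.p6) were held for all 10 genes, 17 windows in all, some of them overlapping. In the window nearest the annotated start, 3 of the 10 genes held ACGTG, and 5 did when every window was counted. Of all 32851 windows of this length, 16.6% held ACGTG, 6.02% held CACGTG (which itself contains ACGTG on both strands) and 12.4% held TATAAA. These shares are per single window, so they do not compare with the count of genes over every window. The 3 genes were Ldha, Pgk1 and Hk2, and their windows are shown so that the position and number of the matches can be seen. Capitals mark ACGTG and its reverse complement CACGT. The windows are chr7:46845554-46845803 (plus strand), chrX:106186850-106187099 (plus strand) and chr6:82774455-82774704 (minus strand), each written 5′ to 3′ along the gene.
Ldha: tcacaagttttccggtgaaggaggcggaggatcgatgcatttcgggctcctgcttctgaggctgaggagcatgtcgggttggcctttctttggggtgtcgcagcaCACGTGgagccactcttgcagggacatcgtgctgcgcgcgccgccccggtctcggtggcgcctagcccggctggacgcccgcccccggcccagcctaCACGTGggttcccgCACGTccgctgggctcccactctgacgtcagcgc
Pgk1: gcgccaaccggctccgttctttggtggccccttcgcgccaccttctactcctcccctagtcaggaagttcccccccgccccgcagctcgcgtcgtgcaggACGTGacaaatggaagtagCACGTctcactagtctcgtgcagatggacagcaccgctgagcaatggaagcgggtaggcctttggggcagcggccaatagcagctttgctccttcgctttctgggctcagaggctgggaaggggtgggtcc
Hk2: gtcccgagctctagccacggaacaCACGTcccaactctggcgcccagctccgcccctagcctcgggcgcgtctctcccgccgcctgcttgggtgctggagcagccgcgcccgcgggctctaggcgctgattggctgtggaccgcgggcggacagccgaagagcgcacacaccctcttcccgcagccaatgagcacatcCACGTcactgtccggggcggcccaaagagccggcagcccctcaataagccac
Ldha held 5 matches counted over both strands, 4 of which came from its 2 CACGTG sites. The Ldha window lies inside the gene span given above, downstream of the annotated start. Pgk1 and Hk2 held 2 matches each and no CACGTG. None of the 10 nearest windows held TATAAA. The matches describe letters in a window and say nothing of whether a factor was bound.

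Per kilobase, the highest levels were those of Pkm, Ldha, Pgk1 and Aldoa, and Hk2 was the least abundant in every sorted group. In LSK cells with PBS, Pkm (225), Ldha (212) and Pgk1 (198 CPM per kilobase on average) had overlapping ranges at the top. In LK cells with PBS, Ldha led at 311 CPM per kilobase, clear of Aldoa at 190.4, and Pkm was only seventh at 81.0. In MSC cultures with PBS, Aldoa (601) and Pkm (467) led, and Hk1 (11.7) and Hk2 (11.5) had overlapping ranges at the bottom. With IL-1β the top gene of each population was Ldha in LSK cells (434, overlapping Pgk1 and Pkm), Ldha in LK cells (394) and Aldoa in MSC cultures (638 CPM per kilobase). Hk1 was far lower in MSC cultures than in the sorted cells, with 90.1 to 128 CPM over the 4 MSC libraries against 375 to 698 CPM over the 10 sorted libraries. Populations and cultures differ here in genotype, preparation and treatment route, so these levels are described without a test.

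Together the 10 genes took a larger share of the counted read pairs with IL-1β in all 3 populations. In LSK cells the share was 0.551% to 0.589% with PBS and 0.836% to 0.867% with IL-1β. In LK cells it was 0.455% to 0.567% with PBS and 0.799% to 0.832% with IL-1β. In MSC cultures it was 0.661% to 0.665% with PBS and 0.740% to 0.774% with IL-1β. The groups did not overlap in any of the 3 populations, and the step was smallest in MSC cultures.

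**Figure D1:**
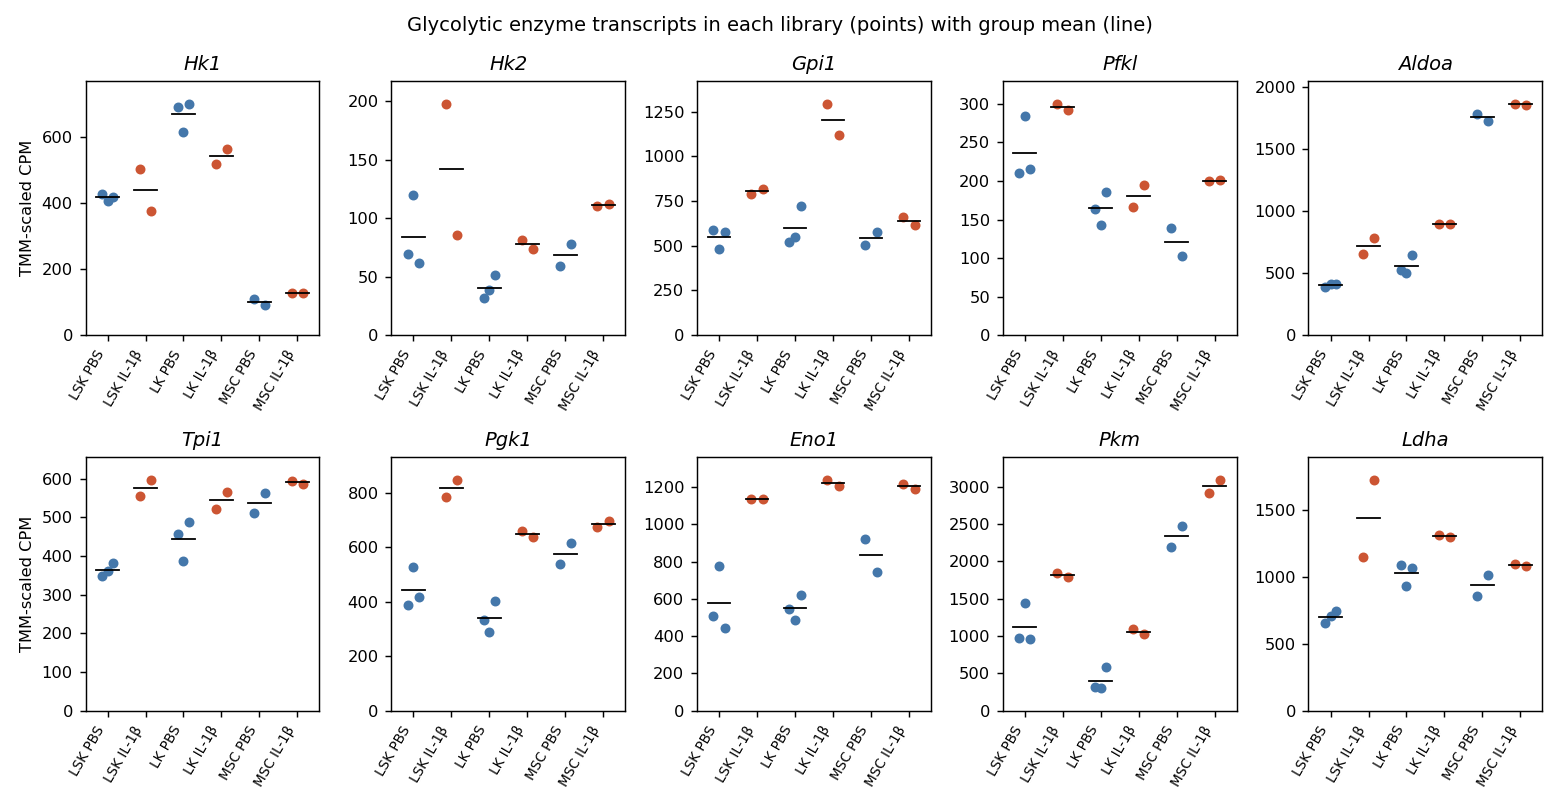
Level of each of the 10 genes (vertical axis, TMM-scaled CPM, linear and starting at 0, own range per panel) in each of the 14 libraries, with PBS in blue, IL-1β in red and the group mean as a line. Eno1 in LK cells sits at 485 to 623 CPM with PBS and at 1204 and 1239 CPM with IL-1β.

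IL-1β treatment was followed by higher transcript levels of 6 of the 10 enzymes in LK cells: Hk2, Gpi1, Aldoa, Pgk1, Eno1 and Pkm. The changes ran from 1.70-fold for Aldoa to 2.76-fold for Pkm, and none of the 10 was called lower. Calls required an adjusted p from edgeR under 0.05 together with a difference of more than 0.5 on the log2 scale. By that rule 6.77% of the 12835 genes tested were called higher, 2.57% lower and 9.34% in either direction, beside 6 of the 10 enzymes. The enzymes had a median log2 fold change of 0.88 and all genes tested one of -0.03, and 9 of the 10 were positive against 47.1% of all genes. All IL-1β libraries lay above all PBS libraries for 8 of the 10, against 19.0% of all genes.

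Among the steps from glucose to the triose phosphates, Hk2, the inducible hexokinase that traps glucose in the cell, was at 31.3, 38.2 and 51.5 CPM with PBS and at 81.3 and 73.9 CPM with IL-1β in LK cells. The groups did not overlap, and the log2 fold change was 1.02 (SE 0.20, adjusted p = 0.0213). Gpi1, which makes fructose-6-phosphate, was at 521, 546 and 723 CPM with PBS and at 1292 and 1117 CPM with IL-1β (log2 fold change 1.09, SE 0.16, adjusted p = 0.00717). Aldoa, which cleaves the bisphosphorylated sugar, was at 523, 496 and 643 CPM with PBS and at 893 and 894 CPM with IL-1β. Its log2 fold change was 0.76 (SE 0.13, adjusted p = 0.0104), and again no PBS library reached the IL-1β libraries.

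The other enzymes of these early steps did not pass the thresholds in LK cells. Hk1, the constitutive hexokinase, was the only enzyme with a negative value. It was at 690.2, 615 and 698 CPM with PBS and at 518 and 563 CPM with IL-1β, with a log2 fold change of -0.23 (SE 0.11, adjusted p = 0.227). Its IL-1β libraries lay below all PBS libraries, as for 29.5% of all genes, but the change did not pass the test. Pfkl, the liver-type enzyme of the committed step, was at 143 to 186 CPM with PBS and at 166 and 194 CPM with IL-1β, so the groups overlapped (log2 fold change 0.21, SE 0.13). Tpi1, which interconverts the triose phosphates, had a log2 fold change of 0.37 (SE 0.12, adjusted p = 0.0970).

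Among the later steps, Pgk1, which returns ATP, was at 335, 289 and 403 CPM with PBS and at 658 and 636 CPM with IL-1β in LK cells. Its log2 fold change was 1.00 (SE 0.14, adjusted p = 0.00608). Eno1, which makes phosphoenolpyruvate, was at 546, 485 and 623 CPM with PBS and at 1239 and 1204 CPM with IL-1β. It had the lowest adjusted p of the 10 genes (log2 fold change 1.22, SE 0.13, adjusted p = 0.00175) and stayed called under every alternative that was run in LK cells.

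Pkm, which makes pyruvate, had the largest change and the widest error in LK cells. It was at 321, 301 and 592 CPM with PBS and at 1094 and 1030 CPM with IL-1β, with a log2 fold change of 1.46 (SE 0.31, adjusted p = 0.0405). PBS replicate 3 stood well above the other PBS libraries. Ldha was at 1086, 933 and 1066 CPM with PBS and at 1312 and 1294 CPM with IL-1β. It passed on the adjusted p (0.0492) but not on size, with a log2 fold change of 0.42 (SE 0.11).

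The count of 6 in LK cells depended on the libraries. It was 5, 4 and 6 without PBS replicate 1, 2 and 3 in turn, 1 (Eno1) without IL-1β replicate 1 and 2 (Eno1 and Gpi1) without IL-1β replicate 2. Marker genes moved with the same contrast. The summed level of 13 neutrophil granule markers was 4374 to 9297 CPM with PBS and 16947 to 19725 CPM with IL-1β, with 7 of the 12 tested called higher. The sum of 14 erythroid markers was 5120 to 6936 CPM with PBS and 3086 to 3547 CPM with IL-1β, with 6 called lower and none at 0. The 9 lymphoid markers, low throughout, summed to 31.2 to 41.9 CPM with PBS and to 4.17 to 7.33 CPM with IL-1β. The 2 of them that were tested were called lower. In bulk RNA, more cells of a type and more RNA per cell cannot be told apart, and the part of these shifts in the enzyme levels was not tested.

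**Figure D2:**
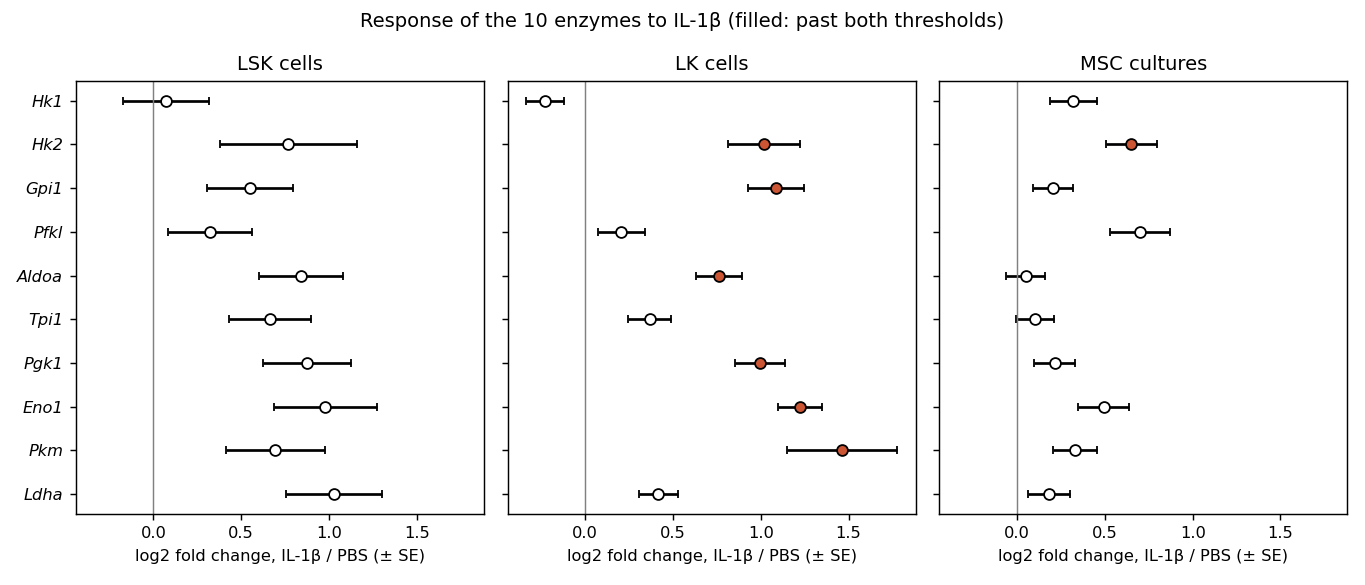
Log2 fold change of IL-1β over PBS (horizontal axis, points with SE as bars) for the 10 enzymes in each population, filled where both thresholds were passed. In LK cells 6 points are filled, in MSC cultures only Hk2 (0.65), and in LSK cells none, although all 10 LSK points lie right of 0.

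In LSK cells, 0 of the 10 enzymes passed the edgeR quasi-likelihood test, although all 10 had positive log2 fold changes with IL-1β, beside 46.5% of all genes. The list's median log2 fold change was 0.73, close to that in LK cells, and the median over all 13132 genes tested was -0.06. Calls were rare here, with 0.632% of all genes called and a biological coefficient of variation of 0.377 against 0.183 in LK cells. At an unadjusted p under 0.05, 7 of the 10 enzymes passed, as did 18.5% of all genes. DESeq2 called 5 of the 10 (Aldoa, Tpi1, Pgk1, Eno1 and Ldha), against 6.89% of all genes. All IL-1β libraries lay above all PBS libraries for 8 of the 10, against 18.3% of all genes tested.

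Ldha had the largest change in LSK cells. It was at 655, 707 and 743 CPM with PBS and at 1149 and 1721 CPM with IL-1β (log2 fold change 1.03, SE 0.27, adjusted p = 0.112). The groups were clear of each other, but the IL-1β libraries were far apart. Eno1 was at 508, 778 and 443 CPM with PBS and at 1135 and 1138 CPM with IL-1β (log2 fold change 0.98, SE 0.29, adjusted p = 0.142). Pgk1 was at 390 to 528 CPM with PBS and at 785 and 848 CPM with IL-1β, and Aldoa was at 383 to 409 CPM with PBS and at 651 and 781 CPM with IL-1β. Their log2 fold changes were 0.87 (SE 0.25) and 0.84 (SE 0.24). All 4 of these genes separated the groups.

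Pkm in LSK cells was at 968, 1444 and 958 CPM with PBS and at 1848 and 1787 CPM with IL-1β. The high PBS value of Pkm, and that of Eno1, belonged to replicate 2. In the same library Gapdh, the enzyme between Tpi1 and Pgk1 that was not among the 10, was at 460.0 CPM, against 952 and 1057 CPM in the other PBS libraries. Without that library Eno1 alone was called (1 of 10). Tpi1 was at 348 to 383 CPM with PBS and at 556 and 597 CPM with IL-1β, with a log2 fold change of 0.66 (SE 0.23). Gpi1 (0.55, SE 0.24) and Pfkl (0.32, SE 0.24) also separated the groups.

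The hexokinases were the 2 enzymes whose LSK groups overlapped. Hk2 was at 61.3 to 119.9 CPM with PBS and at 197 and 85.8 CPM with IL-1β (log2 fold change 0.77, SE 0.39). Hk1 was at 406 to 427 CPM with PBS and at 501 and 375 CPM with IL-1β (log2 fold change 0.07, SE 0.25). Markers moved with the treatment in LSK cells too. Summed neutrophil granule markers were at 2092 to 2917 CPM with PBS and at 9097 to 10591 CPM with IL-1β. The 7 markers of the stem and progenitor gate summed to 1103 to 1483 CPM with PBS and to 724 to 796 CPM with IL-1β, with 2 called lower. The 9 lymphoid markers summed to 308 to 570 CPM with PBS and to 33.5 to 62.2 CPM with IL-1β. Of the 3 tested, 2 were called lower. The part of these markers in the enzyme levels was not tested.

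In MSC cultures, Hk2 was the only enzyme called, and most of the other changes were small. The PBS cultures differed from each other in a transcript of the inactive X chromosome (Xist, below), which the comparison did not take into account. The enzymes had a median log2 fold change of 0.27 and all 13239 genes tested one of 0.00. Of all genes, 11.4% were called in either direction and 7.14% were called higher. All 10 enzymes had higher IL-1β than PBS libraries on the CPM scale, where 33.3% of all genes did, but with 2 libraries per group this is easily reached, and Aldoa lost the separation under the comparison's own scaling. Hk2 was at 59.2 and 78.1 CPM with PBS and at 110.1 and 112 CPM with IL-1β (log2 fold change 0.65, SE 0.14, adjusted p = 0.0413). The call on Hk2 was lost without PBS replicate 2 (log2 fold change 0.50, below the size threshold) and without either IL-1β library. Without PBS replicate 2, Pfkl and Eno1 were called instead.

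Pfkl in MSC cultures was at 139 and 102 CPM with PBS and at 199.5 and 201 CPM with IL-1β. Its log2 fold change of 0.70 (SE 0.17) was the largest of the 10, and its adjusted p of 0.0511 just missed the threshold. Pkm was at 2196 and 2478 CPM with PBS and at 2915 and 3094 CPM with IL-1β (log2 fold change 0.33, SE 0.12, adjusted p = 0.147). Aldoa, the most abundant member per kilobase, was nearly level, at 1776 and 1726 CPM with PBS and at 1858 and 1855 CPM with IL-1β (log2 fold change 0.05, SE 0.11). Tpi1, Pgk1, Gpi1, Ldha and Hk1 had log2 fold changes of 0.10 to 0.32 and adjusted p-values of 0.173 to 0.576. Macrophage markers rose in the same contrast, with 8 of 18 called higher and a summed level of 25714 to 29522 CPM with PBS and 53231 to 54421 CPM with IL-1β. Without Lyz2, which is also a neutrophil marker, the sums were 19889 to 21082 and 28324 to 29358 CPM. The 15 mesenchymal markers rose as well, summing to 2899 to 5011 CPM with PBS and to 6547 to 6962 CPM with IL-1β. Of the 14 tested, 2 were called higher and 0 lower. The 8 proliferation markers summed to 812 to 1104 CPM with PBS and to 396 to 437 CPM with IL-1β, with 4 called lower. The part of any of these marker shifts in the enzyme levels was not tested.

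Eno1 in MSC cultures needs a separate account, because near copies of it took reads in 1 library. Near copies were other annotated transcripts with at least 95% identity over 200 bases, leaving out models that overlap the gene itself. The model left out was Gm49759 at Pkm (95.5% over 201 bases), with 5 to 144 counts in the sorted libraries. In MSC cultures it had 92 and 140 counts with PBS and 1285 and 352 with IL-1β. Pkm had 11132 and 27125, and 70489 and 29280, in the same libraries. Hk1, Hk2 and Pfkl had none, and those of Gpi1, Aldoa, Tpi1, Pgk1, Pkm and Ldha held at most 0.0989% of the gene's own counts in any library. Eno1 had 4, of which Eno1b (99.5% identity over 1736 bases) and Gm4735 (99.6% over 1302 bases) were the closest. In MSC PBS replicate 3, Eno1b held 658 counts and Gm4735 held 468, whereas no other library had more than 11 on Eno1b or more than 12 on Gm4735. Near copies thus held 14.1% of the Eno1 count in that library and at most 0.155% in the other 13.

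Eno1 itself was at 921 and 745 CPM in MSC cultures with PBS and at 1214 and 1192 CPM with IL-1β, and the lower PBS value was that of replicate 3. The log2 fold change was 0.49 (SE 0.15, adjusted p = 0.0833) as deposited and 0.41 (adjusted p = 0.0735) with near-copy counts added to Eno1, so no call was made either way. The same library was also the only 1 of the 14 with 0 counts on Xist, the noncoding RNA of the inactive X chromosome. The other MSC libraries had 325 to 2103. The PBS cultures were thus unlike each other in Xist, and every MSC comparison rests on them, including those of carriers and Hif1a. Xist was uneven between the sorted libraries too. In LSK cells it took 9502 of 12172400, 12564 of 13241793 and 17985 of 16271408 read pairs with PBS. With IL-1β it took 3371 of 8641124 and 563 of 4393233 there. In LK cells it ranged from 4810 of 13992210 to 19671 of 18544346 with PBS. With IL-1β it took 4070 of 7652483 and 2932 of 6367352. The sex of the animals behind each culture or sorted library was not established here. Whether it had a part in the differences of any population was not tested.

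**Figure D3:**
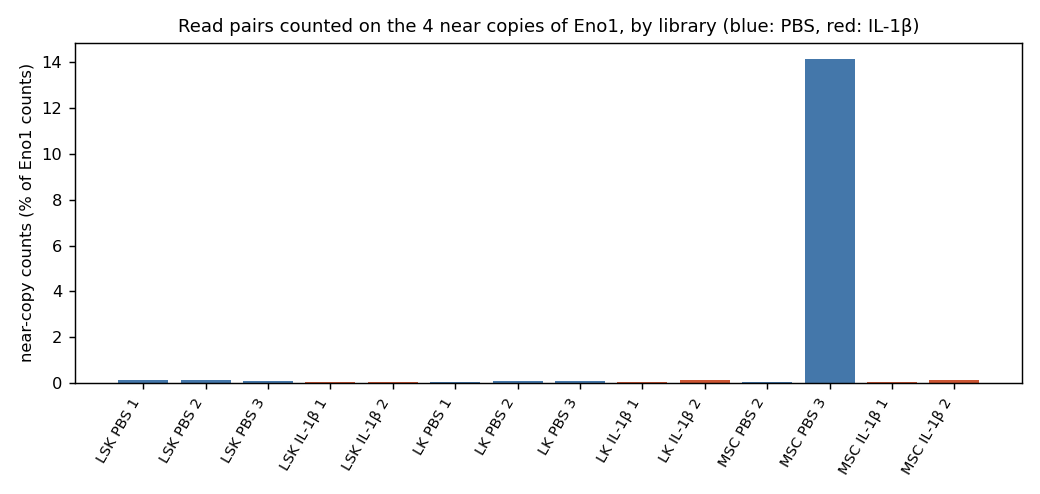
Counts on the 4 near copies of Eno1 as a percentage of the Eno1 count (vertical axis, from 0) for each of the 14 libraries, PBS in blue and IL-1β in red. MSC PBS replicate 3 reaches 14.1% and the other 13 libraries lie at or below 0.155%.

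Between LSK and LK cells with PBS, the enzymes that were called all belonged to the hexokinase, phosphofructokinase and pyruvate kinase steps. In the joint fit of the 10 sorted libraries, Pkm (log2 difference 1.59, SE 0.26, adjusted p = 0.000866), Hk2 (1.16, SE 0.32, adjusted p = 0.0151) and Pfkl (0.65, SE 0.16, adjusted p = 0.0100) were higher in LSK cells. Hk1 was lower in LSK cells (-0.56, SE 0.15, adjusted p = 0.0168). These 4 of 10 compare with 31.8% of all 13839 genes tested, 19.4% higher and 12.4% lower, so the count itself is near the background. The median over the 10 was 0.09, as it was over all genes. Pgk1 (0.50, adjusted p = 0.0438) fell just short of the size threshold. Gpi1 (0.00, SE 0.18), Eno1 (0.18, SE 0.20), Tpi1 (-0.17, SE 0.15), Aldoa (-0.35, SE 0.16) and Ldha (-0.43, SE 0.18) were not called. Among them the LSK libraries lay below the LK libraries for Aldoa, Ldha and, on the CPM scale but not on the fit's own, Tpi1, and Pgk1 separated the groups only on the fit's own scale. With Hk1 that makes 4 of 10 below on the CPM scale, against 26.7% of all genes, and 3 of 10 (Hk2, Pfkl and Pkm) lay above, against 22.5%. The count was 2 without LK PBS replicate 1 and 2 without LK PBS replicate 2.

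Hk3, Pfkm, Pfkp and Pklr, outside the 10, catalyse the same steps, and of these 4 genes 2 were lower and 1 was higher in LSK cells. Pklr, the liver and red cell pyruvate kinase, was at 16.7 to 21.5 CPM in LSK cells and at 265 to 349.8 CPM in LK cells with PBS, a log2 difference of -3.91 (SE 0.38, adjusted p = 4.20e-05). Pfkm, the muscle-type phosphofructokinase, was also lower in LSK cells (-1.07, SE 0.17, adjusted p = 0.000796), whereas Hk3 was higher (0.84, SE 0.24, adjusted p = 0.0209). The erythroid markers stood in the same order, at 870.1 to 968 CPM in LSK and 5120 to 6936 CPM in LK cells with PBS, and their part in these differences was not tested.

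With IL-1β, 0 of the 10 enzymes were called between LSK and LK cells by edgeR, against 4.40% of all genes. At an unadjusted p under 0.05, 4 enzymes passed, against 21.8% of all genes. DESeq2 called 1 (Pfkl), which is near its background of 9.65% of all genes. Pfkl was at 299.8 and 292 CPM in LSK and at 166 and 194 CPM in LK cells, a log2 difference of 0.73 (SE 0.20, adjusted p = 0.0626), and it was called without LSK PBS replicate 2. Pkm (0.79, SE 0.32), Hk2 (0.88, SE 0.39) and Gpi1 (-0.57, SE 0.22) were the others that passed unadjusted. The size of the IL-1β response was not shown to differ between LSK and LK cells for any enzyme. The interaction test called 0 of 10 by edgeR and by DESeq2, against 0.0289% and 2.40% of all genes, and 0 passed at an unadjusted p under 0.05 by edgeR, against 14.2%. The largest differences were a smaller response of Pkm in LSK cells (-0.80, SE 0.41, adjusted p = 0.390), a larger one of Ldha (0.58, SE 0.28, adjusted p = 0.374) and a smaller one of Gpi1 (-0.58, SE 0.28, adjusted p = 0.376). The median interaction over all genes was -0.12, so values near 0 cannot be read as a direction.

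Isoenzyme shares were computed within each library from levels per kilobase, which leaves out the scaling between libraries. Exact two-sided permutation tests were run on 21 shares, and with 3 against 2 libraries they cannot go below p = 0.1, and with 2 against 2 the smallest p is larger still, so none could pass 0.05. The lowest adjusted p was 0.3. The shares are therefore given as values.

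Pkm made up 37.3%, 36.5% and 59.2% of the summed Pkm and Pklr level in LK cells with PBS and 82.7% and 77.4% with IL-1β. The mean moved from 44.3% ± 12.9 (SD, n = 3) to 80.1% ± 3.72 (SD, n = 2), with no overlap (exact permutation p = 0.2). Pklr itself was at 265 to 349.8 CPM with PBS and at 148 and 194 CPM with IL-1β in LK cells, and it fell by 0.82 on the log2 scale (SE 0.16, adjusted p = 0.0181). The share combined a called rise of Pkm with a called fall of Pklr. In LSK cells Pkm was 96.7% to 97.9% with PBS and 99.6% and 98.2% with IL-1β, and in MSC cultures Pklr was at or near 0.

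Hk1 made up 62.1% to 72.4% of the summed Hk1, Hk2 and Hk3 level in LK cells with PBS and 44.8% and 49.2% with IL-1β. Hk2 went from 4.69%, 5.75% and 6.54% to 10.0% and 9.24% there, and Hk3 from 22.9% to 31.4% up to 45.2% and 41.5%. Per kilobase, Hk1 was thus the main hexokinase transcript of LK cells with PBS and less than the other 2 combined with IL-1β. In shares of raw counts, where the longer Hk1 weighs more, it was still 62.8% and 66.9% with IL-1β, against 77.4% to 84.6% with PBS. In MSC cultures Hk3 was the main hexokinase, and its share went from 81.1% and 84.4% down to 72.1% and 70.6%. Hk2 there went from 8.24% and 8.61% to 15.4% and 16.4%.

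Per kilobase, Pfkl gained share in all 3 populations. It went from 53.0% to 57.1% up to 63.9% and 60.6% in LSK cells, from 25.4% to 34.7% up to 41.3% and 39.8% in LK cells, and from 57.4% and 52.5% up to 69.0% and 67.5% in MSC cultures. From raw counts the mean gain was only 2.11 points in LSK and 2.91 points in LK cells, against 7.67 and 11.1 points per kilobase, and the PBS and IL-1β libraries overlapped in both. Pfkm lost share in the same libraries, most in LK cells, where it went from 59.5% to 70.4% down to 43.2% and 46.3%. In LK cells Pfkm fell by 0.82 on the log2 scale (SE 0.15, adjusted p = 0.0129) while Pfkp, the platelet-type enzyme, rose (1.44, SE 0.17, adjusted p = 0.00414), so the share of Pfkl there rose with little change in Pfkl. Aldoa, Eno1 and Ldha each supplied over 91% of their step in every library, so their own changes were those of the step.

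**Figure D4:**
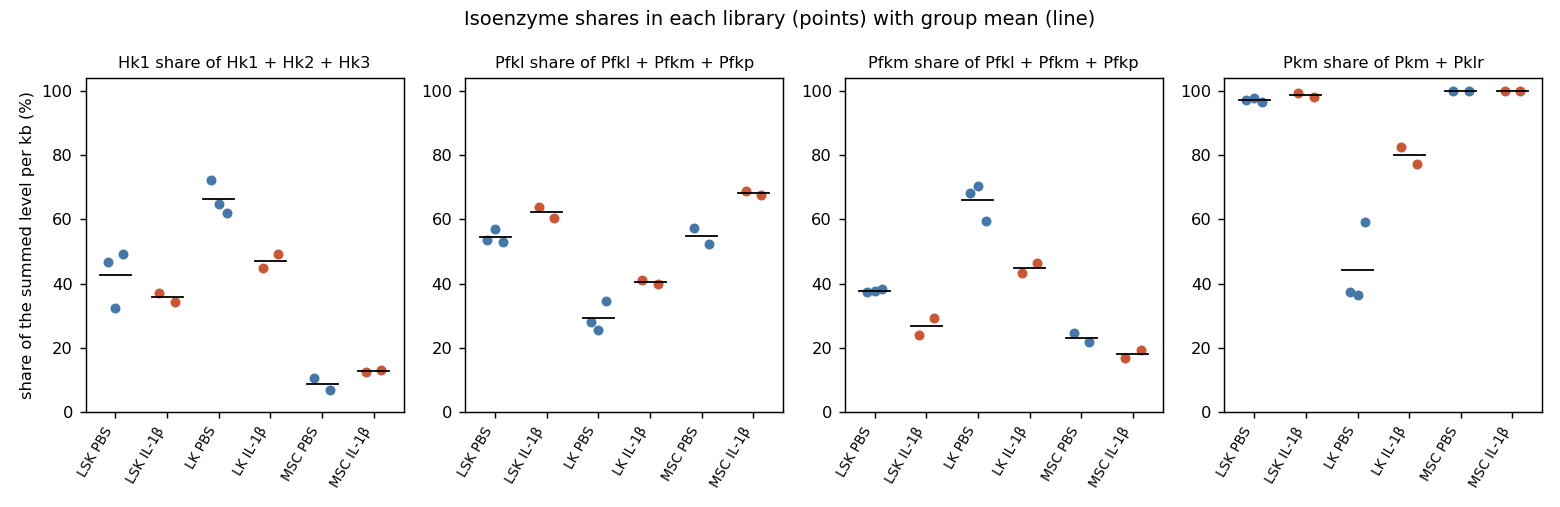
Share of Hk1, Pfkl, Pfkm and Pkm in the summed level per kilobase of the isoenzymes of their step (vertical axis, %, 0 to 100) in each library, PBS in blue and IL-1β in red, lines for group means. Pkm in LK cells sits at 36.5% to 59.2% with PBS and at 77.4% and 82.7% with IL-1β.

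Among the carriers and the fructose bisphosphate enzymes that feed or set the rate of glycolysis, 5 of 12 genes tested were called higher in LK cells and 5 of 12 in MSC cultures. Of all genes tested, 6.77% were called higher in LK cells and 7.14% in MSC cultures. In LK cells, Slc2a1 (a glucose importer) was at 4.52, 5.93 and 10.4 CPM with PBS and at 24.1 and 23.9 CPM with IL-1β (log2 fold change 1.86, SE 0.33, adjusted p = 0.0136). Slc16a3, which exports lactate, was at 5.46 to 5.78 CPM with PBS and at 22.3 and 21.9 CPM with IL-1β (log2 fold change 2.04, SE 0.19, adjusted p = 0.00130). These were the only called genes among 7 carriers tested. The PBS and IL-1β libraries were clearly apart for both called carriers. Slc2a3, another glucose carrier, had higher CPM than Slc2a1 in every LK library. It was lower with IL-1β, at 63.0 to 66.5 CPM with PBS and at 48.5 and 44.8 CPM with IL-1β, and was not called. The summed level of Slc2a1 and Slc2a3 was not tested. Pfkfb3 (1.41, SE 0.19), Pfkfb4 (1.66, SE 0.24) and Tigar (1.84, SE 0.30) were called higher among the 5 enzymes that make or remove the fructose bisphosphate that activates phosphofructokinase. Pfkfb3 mainly makes this activator and Tigar removes it, so the called genes included both directions of that control.

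Of the 13 other glycolytic enzymes and isoenzymes tested in LK cells, 4 rose (Hk3, Pfkp, Gapdh and Pgam1) and 2 fell (Pfkm and Pklr). Of all genes tested there, 6.77% were called higher and 2.57% lower. Gapdh was at 1057 to 1401 CPM with PBS and at 1805 and 1781 CPM with IL-1β (log2 fold change 0.65, SE 0.14, adjusted p = 0.0238). Pgam1, which acts between Pgk1 and Eno1, was at 111 to 184 CPM with PBS and at 339 and 329 CPM with IL-1β (1.38, SE 0.23, adjusted p = 0.0178). With these, a gene called in either direction was found in LK cells at every step from hexokinase to pyruvate kinase except that of Tpi1. Several steps pool isoenzymes and count rises and falls alike, so this coverage has no share of all genes to set beside it. At the phosphofructokinase step Pfkp rose and Pfkm fell, and at the pyruvate kinase step Pkm rose and Pklr fell. At the hexokinase step Hk2 and Hk3 rose, whereas Hk1, which had the highest CPM, was lower without passing the test. The summed level of each step was not tested. Around the pathway, 0 of 12 genes of the pyruvate dehydrogenase list, 1 of 7 pentose phosphate enzymes (Pgd, 1.12, SE 0.10) and 0 of 4 gluconeogenesis enzymes were called.

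In MSC cultures, 4 of 7 carriers rose although only Hk2 did among the 10 enzymes. Slc2a1 was at 76.3 and 72.2 CPM with PBS and at 141 and 144 CPM with IL-1β (0.91, SE 0.11, adjusted p = 0.00845). Slc16a3 was at 60.6 and 47.9 CPM with PBS and at 127 and 116 CPM with IL-1β (1.13, SE 0.15, adjusted p = 0.0104). Slc2a6 (1.64, SE 0.21) and Slc16a1 (1.13, SE 0.12) were the others, and Pfkfb3 rose by 1.26 on the log2 scale (SE 0.10, adjusted p = 0.00265). Of the 12 other glycolytic enzymes tested, Aldoc rose (1.13, SE 0.23) and Bpgm fell by 0.78 on the log2 scale (SE 0.18). Pdk4, which restrains pyruvate dehydrogenase, was the only called gene of 13 in its list and fell by 1.61 on the log2 scale (SE 0.33). In LSK cells, none of the 12 other glycolytic enzymes, 5 fructose bisphosphate enzymes, 7 carriers, 12 pyruvate dehydrogenase genes, 7 pentose phosphate enzymes or 4 gluconeogenesis enzymes was called by edgeR. Slc2a1 there was at 23.8 to 36.1 CPM with PBS and at 38.1 and 35.7 CPM with IL-1β.

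**Figure D5:**
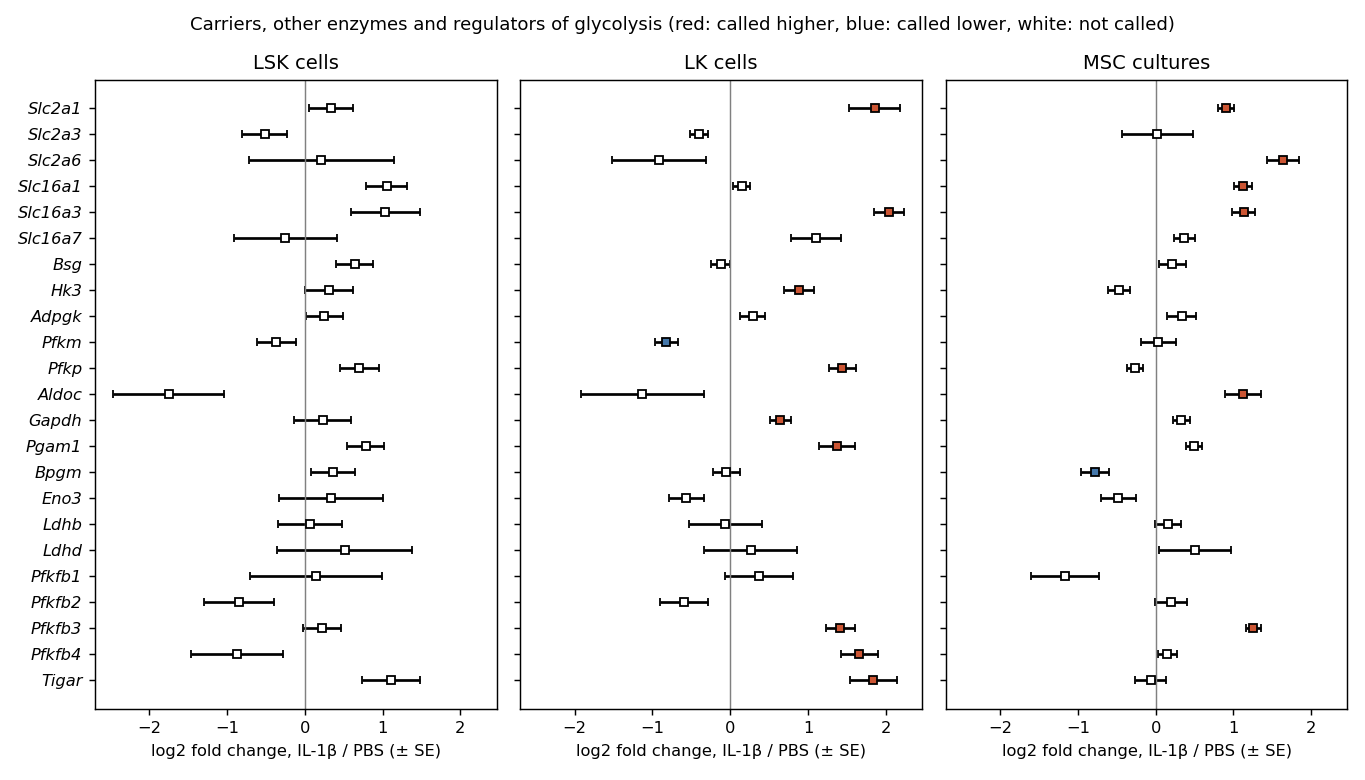
Log2 fold change of IL-1β over PBS (horizontal axis, points with SE as bars) for 23 carriers, other glycolytic enzymes and fructose bisphosphate enzymes tested in all 3 populations, red where called higher, blue where called lower and white where not called. Slc2a1, Slc16a3 and Pfkfb3 are red in both LK cells and MSC cultures, and no gene is coloured in LSK cells.

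Of the hypoxia pathway and its targets outside glycolysis, 6 of 18 genes tested were called higher in LK cells and 8 of 20 in MSC cultures, with none called lower in either. Of all genes tested, 6.77% were called higher in LK cells and 7.14% in MSC cultures. All IL-1β libraries lay above all PBS libraries for 8 of the 18 in LK cells, against 19.0% of all genes. They lay below for 4 of the 18, against 29.5% of all genes. In LSK cells 0 of 17 were called. Hif1a was at 26.1, 26.6 and 33.5 CPM with PBS and at 85.7 and 84.2 CPM with IL-1β in LK cells (log2 fold change 1.64, SE 0.14, adjusted p = 0.000968). In MSC cultures Hif1a was at 153 and 105 CPM with PBS and at 419 and 416 CPM with IL-1β (1.67, SE 0.20, adjusted p = 0.00913). Egln3, a prolyl hydroxylase that marks this factor for degradation, was also higher in LK cells (1.57, SE 0.30) and in MSC cultures (1.59, SE 0.24). The other called genes were Vegfa, P4ha1 and Ero1l in both, Mxi1 in LK cells, and Epas1, P4ha2 and Ddit4 in MSC cultures. In LSK cells Hif1a was at 36.0 to 59.9 CPM with PBS and at 70.6 and 46.3 CPM with IL-1β (0.29, SE 0.30). Of the Myc network, 1 of 8 genes tested was called in LSK cells, 1 of 8 in LK cells and 1 of 7 in MSC cultures. Of all genes tested, 0.632%, 9.34% and 11.4% were called in either direction there, and a single called gene is no result about the list. Mycn was lower in LSK cells (-1.95, SE 0.28, adjusted p = 0.0207), Mlx was higher in LK cells (0.52, SE 0.11) and Myc was lower in MSC cultures (-0.97, SE 0.15, adjusted p = 0.0171).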

How the data were processed

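The authors deposited unnormalized counts, 1 value per gene and library, each a number of read pairs. They trimmed reads with fastp 0.20.0, aligned them with HISAT2 2.0.1 to GRCm38, sorted them with SAMtools 1.10 and counted read pairs in reverse-stranded mode with featureCounts 2.0.2 on Ensembl genes. Read pairs shared between near-identical genes are not counted by the default settings of that tool. Libraries were rRNA-depleted. Tests used edgeR 4.0.16 under R 4.3.3 (low counts filtered by filterByExpr, TMM scaling, robust quasi-likelihood fits, Benjamini-Hochberg adjustment over all genes tested), within each population for IL-1β and jointly over the 10 sorted libraries for LSK against LK and the interaction. Calls required an adjusted p under 0.05 together with a difference of more than 0.5 on the log2 scale, the thresholds the study used with DESeq2. The standard error is the log2 fold change divided by the square root of F. Near copies were sought with blastn 2.17.0 in GENCODE M21 transcripts, leaving out models that overlap the gene itself.

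The 10 genes and all lists were chosen with earlier results of these data known. The genes named are the 10 enzymes in each comparison and, of each other list, the called genes and isoenzymes of the same steps. Alternatives were DESeq2 1.42.0, its size factors in edgeR, no filter on low counts, no threshold on size, a block for the replicate number, raw-count shares, each library left out, and, chosen after seeing the data, near-copy counts added to the gene. On simulated counts with 200 genes changed by 2 on the log2 scale, the fits recovered 56.7% in the LSK, 92.3% in the LK and 99.5% in the MSC comparison, 97.4% between LSK and LK cells with PBS and 31.3% for the interaction. An MSC library named in a table header without a count column was not analysed here.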

Additional observations from a re-analysis of the deposited data

Results flagged for a closer look

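Hk1 moved in opposite directions in LK cells and MSC cultures in every library, with a log2 fold change of IL-1β over PBS of -0.23 in LK cells and 0.32 in MSC cultures. The Hk1 share of the hexokinases did the same, by -19.4 percentage points in LK cells and 3.96 in MSC cultures. The Aldoa share of the aldolases went up by 0.865 points in LSK cells and 0.138 points in LK cells and changed by -1.02 points in MSC cultures. None of these differences between populations was tested, and neither the Hk1 change in LK cells (adjusted p = 0.227 by edgeR) nor that of Hk1 or Aldoa in MSC cultures passed the test.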

How the results depend on the processing

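Numbers of enzymes called changed as follows. In LSK cells 0 of 10 became 5 with DESeq2 and 2 with no filter on low counts, and 0 to 1 with libraries left out. In LK cells 6 became 5 with no filter (Pkm lost), 7 with no threshold on size (Ldha gained) and 1 to 6 with libraries left out. In MSC cultures 1 became 2 with DESeq2, 3 with no filter and 0 to 2 with libraries left out. Between LSK and LK cells, 4 with PBS became 5 with no threshold on size (Pgk1 gained) and 2 to 5 with libraries left out, and 0 with IL-1β became 1 with DESeq2, 1 with no filter and 0 to 1 with libraries left out. The interaction gave 0 throughout. Over all genes, calls went from 83 in LSK cells to 905 with DESeq2 and 869 with no filter (3 to 480 with libraries left out), from 1199 in LK cells to 1844 with no filter (66 to 2409), from 1515 in MSC cultures to 2354 with no filter (38 to 3819), from 609 between LSK and LK cells with IL-1β to 1336 with DESeq2 and 1410 with no filter (89 to 1867), and from 4 for the interaction to 332 and 398 (0 to 336). Between LSK and LK cells with PBS, 4394 became 2741 to 4607 with libraries left out. With no filter the median over all genes was -0.26 in LSK and -0.13 in LK cells. The cause of these changes was not tested.

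Signs turned only for fold changes that were not called. Gpi1 between LSK and LK cells with PBS was -0.058 with DESeq2, -0.058 with its size factors and -0.11 with no filter, and -0.14 to 0.17 with libraries left out. With libraries left out, the range was -0.15 to 0.28 for Hk1 in LSK cells, -0.070 to 0.34 for Eno1 between LSK and LK cells with PBS, -0.18 to 0.36 for Ldha and -0.016 to 0.10 for Tpi1 between them with IL-1β, and -0.96 to 0.19, -0.022 to 0.23 and -0.11 to 0.21 for Hk2, Pfkl and Aldoa in the interaction.

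Of 760 fold changes under an alternative, 698 kept their direction and call, 21 gained a call, 22 lost one and 19 changed sign. From raw counts instead of levels per kilobase, the change of share with IL-1β moved by more than 1 SD in 5 cases, to 8.67 points for Hk2 in MSC cultures, 2.11 and 2.91 points for Pfkl in LSK and LK cells, and 1.75 and 2.38 points for Eno1 in LK cells and MSC cultures.

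Whether the replicate numbers pair LSK with LK libraries was not settled. Correlations were taken over genes between the deviations of log2 CPM from the group mean, not between the levels themselves. By that measure same-numbered libraries correlated at 0.19, 0.12 and 0.45 with PBS. With IL-1β the value was 0.08, and -0.08 for unlike numbers. The deviations of 2 libraries mirror each other, so IL-1β gives a single value that does not compare with those of PBS. Same-numbered PBS and IL-1β libraries correlated at -0.09 to 0.12. With the replicate number as a block, 0 enzymes were called in LSK cells, 6 in LK cells, 4 and 0 between them with PBS and IL-1β and 0 for the interaction, and calls over all genes were 702, 2331, 4480, 733 and 24. With PBS, LSK replicate 2 correlated better with LK replicate 1 (0.15) than with its own number. The block changed no call on an enzyme. No paired analysis was possible for MSC cultures because the groups share only 1 number. Fits that leave an arm with 1 library assume that it varies like the others.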

Other observations

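Over the 14 libraries, the genes whose log2 CPM followed the mean of the 10 enzymes most closely, among 11041 compared, were Sema6b (Pearson r = 0.93, Spearman rho = 0.93), Edem2 (0.92 and 0.96) and Card9 (0.89 and 0.92). The libraries share scaling and fall into 6 groups, so these values describe likeness only.

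In LK cells with PBS, several genes beside glycolysis were higher than in LSK cells. Of 7 pentose phosphate enzymes 5 were lower in LSK cells (G6pdx, Pgd, Rpia, Rpe and Taldo1, by 0.57 to 0.84 on the log2 scale), as were 5 of 12 genes of the pyruvate dehydrogenase list (Pdhb, Dlat, Dld, Pdhx and Mpc1). Of all 13839 genes tested, 12.4% were called lower and 19.4% higher in LSK cells. Slc2a1 (log2 difference 2.19, SE 0.30) and Slc16a7 (1.48, SE 0.52) were higher in LSK cells, and Slc16a1 and Bsg, a monocarboxylate carrier and its chaperone, were lower (-1.20, SE 0.18, and -0.98, SE 0.16). The groups overlapped for Slc16a7, as LSK replicate 2 was at 2.55 CPM and the LK libraries were at 2.81 to 4.69 CPM.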
